A study of Mus musculus with 42 samples.

Results

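The SR proteins, the heterogeneous nuclear ribonucleoproteins (hnRNPs) and the kinases of the SR proteins were followed in intimal RNA of mouse carotid arteries and in cultured aortic cells. The members are all genes of the expression table with an Srsf or Sfrs symbol followed by a number or a symbol that begins with Hnrnp or Hnrp, together with Tra2a, Tra2b, Srrm1, Srrm2, Srpk1, Srpk2 and Clk1 to Clk4. Of 21674 genes, 42 met this rule: 12 SR proteins, 4 SR-related proteins, 20 hnRNPs and 6 kinases. Sfrs18, now called Pnisr, was taken in by its older symbol. Of the 42 genes, 41 passed the filter on low counts in each comparison. The exception was Srsf12, whose scaled FPKM did not exceed 0.224 in any untreated pool.

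SR proteins bind exonic enhancers through RNA recognition motifs and recruit the U1 and U2 particles through a domain rich in arginine and serine (the RS domain). The kinases Srpk1 and Srpk2 phosphorylate this domain in the cytoplasm, after which transportin-SR (Tnpo3) carries the proteins into the nucleus, and the Clk kinases phosphorylate it further within nuclear speckles. hnRNPs coat nascent transcripts, and several of them, Hnrnpa1 first among those studied, oppose SR proteins at the same exons. Many genes of both families also splice unproductive isoforms of their own transcripts, which counts per gene do not separate from the coding ones.

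Wild-type C57BL/6J mice 6 to 7 weeks old had a partial ligation of the left carotid, which lowers flow on that side (low flow) and raises it in the contralateral artery (high flow), or a sham operation. Each intimal library was a pool of 3 to 5 arterial flushes taken 48 hr after surgery. Untreated arteries gave 3 pools at low flow (A, B, C), 3 at high flow (D, E, F) and 3 after sham surgery (G, H, I). In the depletion experiment low-flow pools came from mice given IgG, anti-GPIba against platelets, anti-Gr1 against granulocytes, PBS liposomes or clodronate liposomes against macrophages, with 2 pools each, and high-flow pools came from the IgG and PBS liposome mice, with 2 each. At 7 days, arteries of mice with 3 alleles, Rbfox2 lox/lox, Rosa26-mTmG and Cdh5(PAC)-CreERT2 (EC-KO), in which Cre acts in endothelial cells, were set against those of littermates that carried Rosa26-mTmG; Rbfox2 lox/lox but no Cre. These mice were 2 to 7 months old, and there were 3 low-flow pools and 2 high-flow pools of each genotype, with the numbers 1, 4 and 5 in the table. The cultures were 1 immortalized TetOn-SV40 line of eGFP-sorted aortic endothelial cells, kept without doxycycline, in 4 static conditions (untreated cells, 10% plasma added, platelets plus macrophages added, and all 3 added), primary aortic cells of an Rbfox2 EC-KO and a control culture after 7 days, and sorted eGFP+ primary aortic cells after 5 days, all with 1 library each.

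Total counts per library were 4064477 to 6794904 in the untreated pools, 12286104 to 19035957 in the depletion experiment, 10318685 to 18633538 at 7 days and 13975153 to 16394043 in the cell line. Levels are given as scaled FPKM, which are CPM made from the deposited counts after TMM scaling of the library size (a scaling that sets the bulk of genes equal), divided by the effective length of the gene in kilobases. TMM was computed within each experiment, so levels were compared within an experiment only. Low-flow pools A and B stood apart: Actb took 10.6% and 10.1% of their counts against 3.74% in pool C, and their TMM factors were 0.569 and 0.549 against 1.12 to 1.27 in the other untreated pools. All 11 endothelial markers were detected in each experiment, and in the untreated pools their summed level was 4653 to 7636 scaled CPM at low flow, 6864 to 7950 at high flow and 6459 to 7819 after sham surgery. Macrophage markers summed to 2019 to 6125 scaled CPM at low flow and 64.4 to 145 at high flow, neutrophil markers to 254 to 912 and 5.76 to 13.6, smooth muscle markers to 3836 to 5229 and 441 to 521, and markers of cycling cells to 1168 to 1904 and 42.5 to 70.6. Erythroid markers stood the other way, at 660 to 1480 at low flow and 2725 to 4745 at high flow, as did fat cell markers, at 1.56 to 3.28 and 79.1 to 1155. By the names of the read files in the table's header, the untreated pools belonged to 1 sequencing batch. The low-flow depletion pools and the 7 day low-flow pools numbered 1 belonged to a second batch, and the high-flow depletion pools, the 7 day high-flow pools and the 7 day low-flow pools numbered 4 and 5 to later ones.

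Promoters of 37 of the 42 members were found in RefSeq (GRCm38.p6, 250 bases before to 50 after the start). They were searched on both strands for CCAAT, the box bound by NF-Y, GGCGGGAA, an E2F sequence, TGACGTCA, the CREB sequence, and CACGTG, the E-box of Myc, and of these sequences none holds another. CCAAT stood in 21 of the 37 promoters, against 43.4% of the genes tested at 48 hr that have a promoter in the table. GGCGGGAA stood in 9, against 4.76% of those genes, and these were Hnrnpa2b1, Hnrnpf, Hnrnpr, Hnrnpul1, Srpk2, Srsf1, Srsf10, Srsf4 and Tra2b. CACGTG stood in 6 (12.0% of those genes) and TGACGTCA in the promoters of Clk4 and Tra2a (3.68%). Over all promoters of the table the shares were 37.4% for CCAAT, 2.19% for GGCGGGAA, 7.15% for CACGTG and 1.79% for TGACGTCA. Of the 18 members raised at low flow, as described below, 13 held CCAAT, 5 GGCGGGAA, 4 CACGTG and 0 TGACGTCA. A match describes these letters within the window and shows no binding. The promoters of the gene with the largest rise at low flow, of a raised relative of it and of a lowered kinase are shown 5′ to 3′ on the strand of the gene, with the matches to 1 motif in each in capitals. The capitals mark 4 CCAAT boxes in Hnrnpa1 (chr15:103240147-103240446, plus strand), the reverse complement of GGCGGGAA in Hnrnpa2b1 (chr6:51469845-51470144, minus strand; the reverse complement of CCAAT that follows it directly is left in lower case) and TGACGTCA, which is its own reverse complement, in Clk4 (chr11:51262864-51263163, plus strand).
Hnrnpa1: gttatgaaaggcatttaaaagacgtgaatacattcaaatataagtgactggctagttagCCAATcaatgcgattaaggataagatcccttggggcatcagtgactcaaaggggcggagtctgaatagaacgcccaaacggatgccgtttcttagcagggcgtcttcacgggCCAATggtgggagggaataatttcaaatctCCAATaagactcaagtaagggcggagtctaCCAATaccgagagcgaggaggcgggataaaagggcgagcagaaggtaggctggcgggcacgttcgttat
Hnrnpa2b1: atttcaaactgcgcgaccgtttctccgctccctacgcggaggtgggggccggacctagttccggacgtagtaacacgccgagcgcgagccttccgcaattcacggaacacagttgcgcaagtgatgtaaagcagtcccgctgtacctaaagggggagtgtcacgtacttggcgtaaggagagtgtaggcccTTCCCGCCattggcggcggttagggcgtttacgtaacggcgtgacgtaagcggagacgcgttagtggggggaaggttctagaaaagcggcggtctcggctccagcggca
Clk4: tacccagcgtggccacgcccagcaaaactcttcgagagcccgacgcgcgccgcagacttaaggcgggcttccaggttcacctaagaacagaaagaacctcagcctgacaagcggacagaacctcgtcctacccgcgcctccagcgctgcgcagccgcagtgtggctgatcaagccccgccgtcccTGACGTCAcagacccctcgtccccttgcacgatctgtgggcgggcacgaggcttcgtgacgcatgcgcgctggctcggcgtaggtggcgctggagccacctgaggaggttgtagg

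At 48 hr 12 of 20 hnRNPs rose at low flow and 0 fell, while the kinases divided. Between low and high flow 21 of the 41 members tested changed (edgeR quasi-likelihood test, Benjamini-Hochberg adjusted p, Padj, under 0.05 over all genes), against 46.2% of all genes. Of these 18 were higher at low flow and 3 lower, where 23.6% and 22.6% of all genes were. The median log2 fold change was 0.44 over the members and −0.07 over all genes. The median log2 fold change of the hnRNPs was 0.78. Of the other roles, 4 of 11 SR proteins rose and 0 fell, 1 of 4 SR-related proteins rose, and of the 6 kinases 1 rose and 3 fell (median −0.69). In bulk pools, fewer cells of a type and less RNA per cell cannot be told apart, and the marker lists that stood higher (macrophage, neutrophil, smooth muscle, cycling) or lower (erythroid, fat cell) in the same low-flow pools have the ranges given above. Of those lists, 12 of 13 tested macrophage markers, 7 of 7 neutrophil markers, 3 of 5 smooth muscle markers and 12 of 12 cycling markers were called higher at low flow, and 4 of 5 erythroid and 4 of 4 fat cell markers lower. Their part in the members' changes was not tested.

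**Figure D1:**
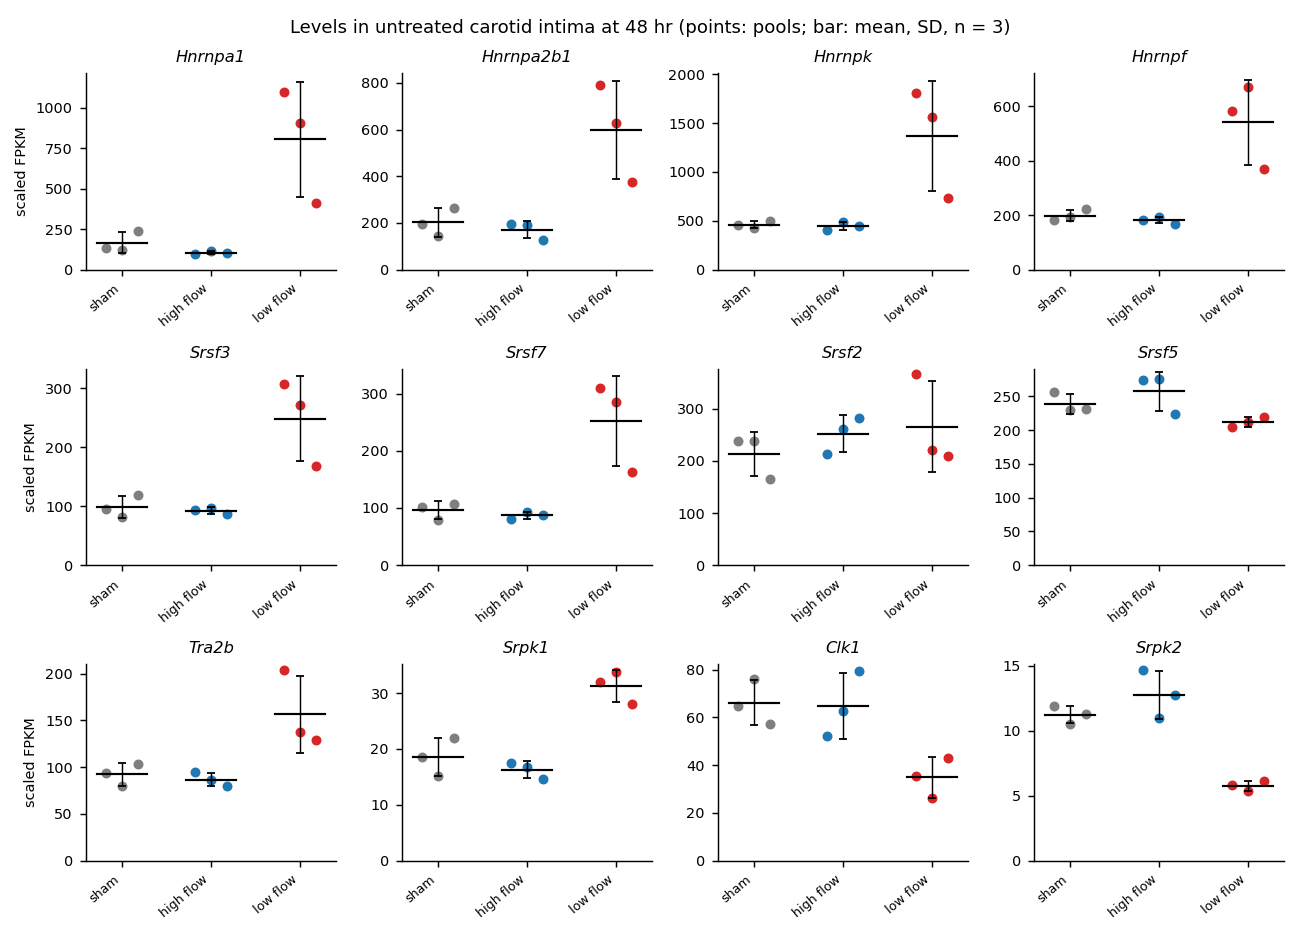
Scaled FPKM (linear axis) of 12 members in the 9 untreated pools, 1 point per pool, with bars for the mean and SD of each group of 3 (sham, high flow, low flow). Hnrnpa1 reached 409 to 1098 at low flow against 98.0 to 116 at high flow, while Srpk2 and Clk1 sat below both control groups in all 3 low-flow pools.

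Hnrnpa1, which promotes exon skipping and shuttles between nucleus and cytoplasm, showed the largest change. Its scaled FPKM was 1098, 905 and 409 in low-flow pools A, B and C, 98.0, 116 and 102 in high-flow pools D, E and F, and 136, 120 and 241 in sham pools G, H and I. All low-flow pools stood above all others, and pool C stood lowest of the low-flow pools. The log2 fold change of low over high flow was 2.92 ± 0.396 (SE, n = 3 pools each, edgeR Padj = 0.000181). On mm9 the gene lies on chromosome 15 from 103070945 to 103074445, plus strand. Its counts were not whole in 39 of 39 libraries of the replicated and cultured sets. RSEM divides reads between near-identical copies, so the level of Hnrnpa1, like that of Hnrnpa3, is uncertain to that extent. Counts were also not whole in 31 of the 39 libraries for Srpk2 and in 30 for Hnrnph3, and the same holds for their levels.

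Hnrnpa2b1, a close relative with the same modular structure, was at 789, 630 and 374 scaled FPKM at low flow, 194, 193 and 128 at high flow and 196, 143 and 266 after sham surgery. The low-flow pools again did not overlap with the rest (log2 fold change against high flow 1.79 ± 0.382, edgeR Padj = 0.00325). Hnrnpk, a binder of cytosine-rich RNA, had the highest mean level of all members in every experiment. Its scaled FPKM was 1813, 1566 and 737 at low flow against 407, 485 and 446 at high flow (log2 fold change 1.61 ± 0.417, edgeR Padj = 0.00932). Hnrnpf, which binds runs of guanine, reached 582, 670 and 369 scaled FPKM at low flow against 183, 193 and 169 at high flow (log2 fold change 1.56 ± 0.316, edgeR Padj = 0.00239). Thus in each of these 4 genes pool C lay between pools A and B and the high-flow pools.

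Hnrnpc, a uridine-tract binder that packages pre-mRNA, was at 198, 215 and 142 scaled FPKM at low flow and 73.2, 71.4 and 64.1 at high flow (log2 fold change 1.40 ± 0.249, edgeR Padj = 0.0011). Hnrnpab stood at 25.9, 24.6 and 22.5 against 7.72, 12.3 and 9.06 scaled FPKM, with a log2 fold change of 1.31 ± 0.202 (edgeR Padj = 0.00043). The 3 low-flow pools were close to each other in Hnrnpab, unlike in Hnrnpa1. Hnrnpm, Hnrnpu, Hnrnph1, Hnrnph2 and Hnrnpa3 also rose, by log2 fold changes of 1.28, 0.86, 0.82, 0.74 and 0.70. Hnrnpl, which binds CA repeats, was called higher (log2 fold change 1.40 ± 0.446, edgeR Padj = 0.0253), but its pools overlapped. Its scaled FPKM was 70.4 and 42.5 in pools A and B and 13.4 in pool C, below the 13.6, 16.6 and 17 of the high-flow pools, and without pools A and B its log2 fold change turned to −0.22. The remaining 8 hnRNPs, Hnrnpa0, Hnrnpd, Hnrnph3, Hnrnpr, Hnrnpul1, Hnrnpul2, Hnrpdl and Hnrpll, did not pass the threshold, with log2 fold changes from −0.46 (Hnrnph3) to 0.53 (Hnrnpd).

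Among the SR proteins, Srsf7 and Srsf3, which both couple splicing to mRNA export, changed most. Srsf7 was at 309, 285 and 163 scaled FPKM at low flow and 80.7, 92.2 and 88.5 at high flow (log2 fold change 1.53 ± 0.29, edgeR Padj = 0.00166). Srsf3, the smallest SR protein, was at 307, 272 and 167 against 93.3, 97.3 and 86.1 scaled FPKM (log2 fold change 1.42 ± 0.285, edgeR Padj = 0.00227). Srsf1, the founding member of the family, and Srsf10 each had a log2 fold change of 0.71 with groups that did not overlap, as in 58.1% of all genes tested. Tra2b, which binds GAA-rich enhancers, rose from 94.5, 86.2 and 79.6 to 204, 137 and 129 scaled FPKM (log2 fold change 0.84, edgeR Padj = 0.0157). The other SR proteins were not called. Srsf5 stood at 204, 212 and 219 scaled FPKM at low flow and 274, 275 and 224 at high flow, and Srsf2 at 367, 221 and 210 against 212, 262 and 283. Srsf4, Srsf6, Srsf9, Srsf11 and Sfrs18 had log2 fold changes between −0.38 and 0.33, and Srrm1, Srrm2 and Tra2a between −0.02 and 0.44.

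The kinases moved in opposite directions. Srpk1 rose from 17.5, 16.7 and 14.6 scaled FPKM at high flow to 32.0, 33.7 and 28 at low flow (log2 fold change 0.93 ± 0.169, edgeR Padj = 0.00121). Srpk2, the second kinase of the pair, fell from 14.6, 10.9 and 12.8 to 5.79, 5.34 and 6.12 scaled FPKM (log2 fold change −1.15 ± 0.177, edgeR Padj = 0.000413). Clk1 stood at 35.4, 26.1 and 43.1 scaled FPKM at low flow and 52.3, 62.8 and 79.6 at high flow (log2 fold change −0.90 ± 0.242, edgeR Padj = 0.0115). Clk4, the closest relative of Clk1, was at 23.2, 12.9 and 28.5 against 37.8, 38.9 and 47.6 scaled FPKM (log2 fold change −0.93 ± 0.253, edgeR Padj = 0.0123). In none of these 4 kinases did the low- and high-flow pools overlap, as was so for 58.1% of all genes tested. Clk2 and Clk3 did not pass the threshold, with log2 fold changes of −0.48 and 0.13.

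The scaling of pools A and B bears on these counts. When libraries were scaled by their totals the log2 fold change of the median gene was −0.69, and 8 members were called, with no share of all genes given for that fit. Hnrnpa1, Hnrnpa2b1, Hnrnpf and Hnrnpk were then higher, and Clk1, Clk4, Srpk2 and Srsf5 lower. Under that scaling the median log2 fold change was 0.11 for the hnRNPs, −0.55 for the SR proteins and −1.26 for the kinases, so the medians moved with the median gene and those of the SR proteins (0.07 after TMM) and SR-related proteins (0.39 to −0.26) changed sign. Without pools A and B, pool C alone was set against the high-flow pools. The median log2 fold changes were then 0.64 for hnRNPs, 0.25 for SR proteins, 0.31 for SR-related proteins and −0.35 for kinases. Those of Clk1 and Clk4 were −0.58 and −0.53, both smaller in size than with pools A and B. In that fit pool C has no replicate and the spread comes from the 3 high-flow pools, with pool C assumed to vary as they do. As a share of all counts, with no scaling factor, the hnRNPs took 0.615%, 0.526% and 0.621% in low-flow pools A, B and C against 0.322%, 0.375% and 0.313% in high-flow pools D, E and F. The SR proteins took 0.166%, 0.131% and 0.212% at low flow against 0.165% to 0.198% at high flow, which overlap. The kinases took 0.019%, 0.015% and 0.038% against 0.046% to 0.057%, without overlap.

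**Figure D2:**
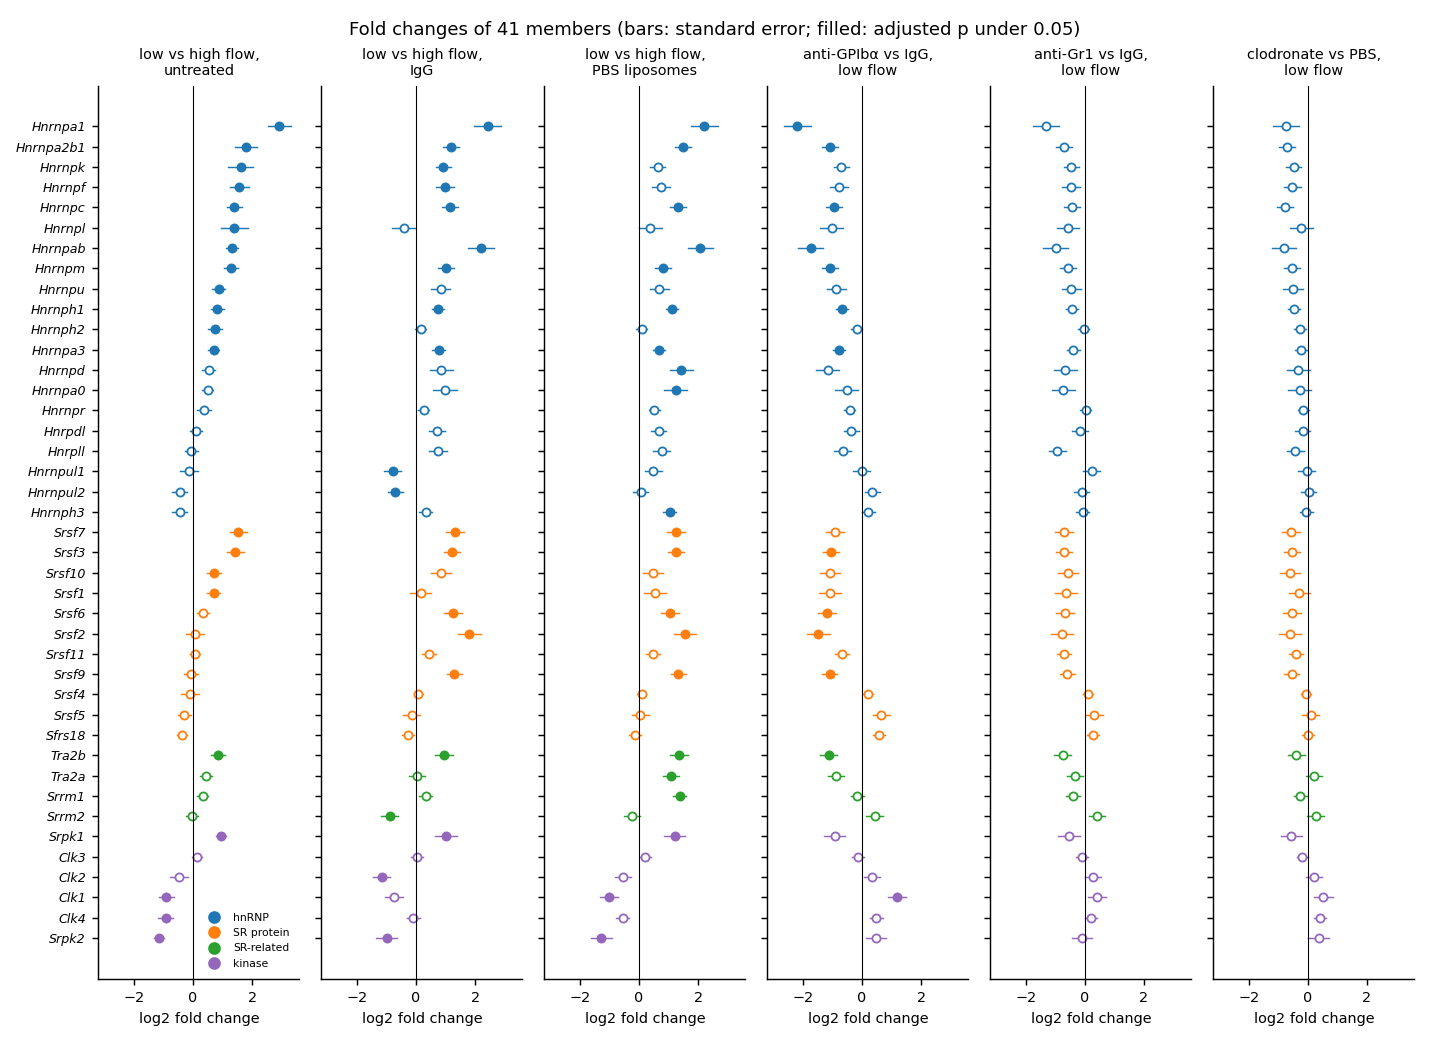
Log2 fold changes of the 41 tested members (rows, grouped by role) in 6 comparisons, from the edgeR fit, with filled points for an adjusted p under 0.05. Hnrnpa1 lies at 2.92, 2.42 and 2.21 in the flow comparisons of untreated, IgG and PBS liposome mice and at −2.19 with anti-GPIba against IgG, and Srpk2 lies below 0 in the same 3 flow comparisons.

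Against sham surgery, 19 of 41 members were called at low flow, where 40.3% of genes were. At low flow 15 of them stood higher (20.6% of genes) and 4 lower (19.7%), and the median log2 fold change was 0.32 over the members and −0.04 over all genes. By role 10 hnRNPs, 3 SR proteins, 1 SR-related protein and 1 kinase rose, and 3 kinases and 1 hnRNP fell. Hnrnpa1 rose by a log2 fold change of 2.25 ± 0.45 (edgeR Padj = 0.00656), Hnrnpk by 1.54, Hnrnpa2b1 by 1.53, Hnrnpf by 1.41, Srsf7 by 1.35, Srsf3 by 1.30, Hnrnpc by 1.11 and Hnrnpab by 0.99. Srpk2 was at 11.9, 10.6 and 11.3 scaled FPKM after sham surgery, above all low-flow pools (log2 fold change −1.0 ± 0.154, edgeR Padj = 0.00249). Clk1, Clk4 and the hnRNP U-like protein Hnrnpul2 fell by 0.96, 0.78 and 0.76 on the log2 scale. In the sham pools macrophage markers summed to 180 to 572 scaled CPM, neutrophil markers to 9.0 to 34.7, smooth muscle markers to 344 to 1383 and cycling markers to 70.1 to 596, all below the low-flow pools, and their part in the changes was not tested. Sham pool I was the highest sham pool for Hnrnpa1, Hnrnpa2b1 and Hnrnpab, and in it the cycling markers summed to 596 scaled CPM against 70.1 and 185 in pools H and G. When libraries were scaled by their totals, which put the median gene at −0.71, 5 members were called. The medians of the hnRNPs (0.60 to −0.11), SR proteins (0.26 to −0.48) and SR-related proteins (0.21 to −0.48) moved about as far as the median gene. The calls also depended on single pools. Without sham pool G 4 members were called, without sham pool H 11, without low-flow pool A 10 and without low-flow pool B 12. No share of all genes is given for these fits or for library totals, so the counts show only how the calls moved. Without both A and B the medians were 0.46 for hnRNPs, 0.09 for SR proteins, 0.12 for SR-related proteins and −0.40 for kinases.

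High flow and sham surgery were not separated by the test for any of 41 members, as for 0 of 11030 genes (0.0%), where 868 genes passed an unadjusted p of 0.05. DESeq2 called 106 genes (0.9%) and 0 members. The median log2 fold change of high flow over sham was −0.10 over the members. Hnrnpa1 had the smallest p, with a log2 fold change of −0.67 ± 0.255 (edgeR Padj = 0.528), followed by Hnrnpm at −0.34 and Tra2a at −0.41. High-flow pools D, E and F lay at 98.0 to 116 scaled FPKM of Hnrnpa1, below the lowest sham pool at 120.

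The flow comparison was repeated in mice given IgG and in mice given PBS liposomes, with 2 pools a group. In both pairs, pools of opposite flow came from different sequencing batches, so that flow and batch cannot be told apart there, whereas the untreated pools shared 1 batch. Under IgG 21 members were called, where 40.5% of genes were. Low flow was above high flow in 16 of them (22.8% of genes) and below it in 5 (17.7%), and the log2 fold change had a median of 0.74 over the members and 0.07 over all genes. Under PBS liposomes 21 were called, where 35.0% of genes were, with 19 above (19.6%) and 2 below (15.5%) and medians of 0.69 and 0.06. By role 9 hnRNPs rose and 2 fell under IgG, and 10 rose and 0 fell under PBS liposomes. In both, 5 of 11 SR proteins rose and 0 fell, and 1 kinase rose and 2 fell. Marker lists differed between the same pools. Under IgG macrophage markers summed to 2294 to 2436 scaled CPM at low flow and 78.8 to 306 at high flow, smooth muscle markers to 4212 to 4656 and 514 to 806, neutrophil markers to 135 to 366 and 4.12 to 25.7, cycling markers to 1090 to 1844 and 73.8 to 110 and endothelial markers to 4394 to 4954 and 13413 to 14319. Under PBS liposomes the sums were 1483 to 2454 against 127 to 226 for macrophages, 3214 to 6344 against 485 to 906 for smooth muscle, 124 to 362 against 7.30 to 8.08 for neutrophils and 4236 to 4300 against 8813 to 11668 for endothelium, while cycling markers overlapped (435 to 1972 against 51.7 to 621). Their part in the members' changes was not tested. Leaving out 1 pool leaves 1 pool in a group, and it lowered both counts. The IgG count fell most without low-flow pool 2, and the PBS liposome count without high-flow pool 1.

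Hnrnpa1 was at 131 and 179 scaled FPKM at low flow and 34.0 and 23.8 at high flow under IgG (log2 fold change 2.42 ± 0.456, edgeR Padj = 0.00284), and at 182 and 200 against 30.2 and 52.5 under PBS liposomes (2.21 ± 0.451, Padj = 0.0043). Hnrnpab followed closely, at 368 and 457 against 81.4 and 100 scaled FPKM under IgG and 584 and 665 against 122 and 174 under PBS liposomes, with log2 fold changes of 2.19 and 2.08. Srsf2, the speckle protein SC35, was called higher under IgG (346 and 392 against 118 and 95.2 scaled FPKM, log2 fold change 1.79 ± 0.388, edgeR Padj = 0.00515) and under PBS liposomes (515 and 592 against 152 and 226, log2 fold change 1.55). In the untreated pools Srsf2 had a log2 fold change of 0.07 and overlapping groups. Srsf9 and Srsf6 behaved alike, with log2 fold changes of 1.30 and 1.25 under IgG, 1.32 and 1.06 under PBS liposomes, and −0.06 and 0.33 in the untreated pools, where neither was called. Srpk2 was lower at low flow in both, at 3.30 and 3.85 against 4.65 and 9.55 scaled FPKM under IgG (log2 fold change −0.99 ± 0.351, edgeR Padj = 0.0424) and at 2.82 and 3.04 against 8.08 and 6.09 under PBS liposomes (−1.27 ± 0.353, Padj = 0.0172).

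Some members were called under 1 injection only, without a test of the difference between the injections. Hnrnpf and Hnrnpk were called higher under IgG (log2 fold changes 0.98 and 0.92) and not under PBS liposomes (0.74 and 0.63). Clk2 fell under IgG, from 23.4 and 16.8 to 9.18 and 8.70 scaled FPKM (log2 fold change −1.17 ± 0.278, edgeR Padj = 0.0079), as did Srrm2 (−0.89), a large scaffold protein of nuclear speckles, Hnrnpul1 (−0.78) and Hnrnpul2 (−0.70). Under PBS liposomes Clk1 fell from 86.3 and 82.1 to 43.3 and 40.2 scaled FPKM (log2 fold change −1.01 ± 0.316, edgeR Padj = 0.0285), and Hnrnpd, Srrm1, Hnrnpa0, Tra2a and Hnrnph3 rose by log2 fold changes of 1.43, 1.37, 1.24, 1.08 and 1.04.

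The untreated, IgG and PBS liposome flow comparisons share no library. In each of the 3, 11 of 41 members were called higher at low flow, namely Hnrnpa1, Hnrnpa2b1, Hnrnpa3, Hnrnpab, Hnrnpc, Hnrnph1, Hnrnpm, Srpk1, Srsf3, Srsf7 and Tra2b, where 11.7% of the 11182 genes tested in all 3 were called higher in each. Srpk2 was the 1 member called lower in each, against 8.86% of genes. Clk3, Hnrnpr, Hnrpdl, Hnrpll, Sfrs18, Srsf4, Srsf5 and Srsf11 were called in none of the flow comparisons at 48 hr or 7 days. Srsf4 was the steadiest of these in the depletion experiment, at 42.4 to 55.5 scaled FPKM over its 14 pools.

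Depletion of platelets with anti-GPIba lowered members of both families in the low-flow intima. Against IgG, 12 of 41 members were lower and 1 was higher, where 16.5% of all genes were called, 10.5% lower and 6.05% higher. The log2 fold change had a median of −0.71 over the members and −0.04 over all genes. The called members were 7 hnRNPs, 4 of 11 SR proteins (median log2 fold change −1.04) and 1 SR-related protein, all lower, and 1 kinase, higher. All low-flow depletion pools came from 1 sequencing batch. The calls depended on the test and on having 2 pools a group. DESeq2 called 24 members (27.5% of genes). A fit of only the compared groups called 24 and reads trimmed to 100 bp 6, with no share of all genes given for either. Leaving out any of the 4 pools left 1 pool in a group, and the calls did not hold in such fits. In the anti-GPIba pools macrophage markers summed to 221 and 311 scaled CPM against 2436 and 2294 under IgG, neutrophil markers to 5.4 to 8.73 against 135 to 366, and cycling markers to 76.1 and 39.4 against 1090 and 1844. Smooth muscle markers summed to 688 to 976 against 4212 to 4656, and endothelial markers stood higher, at 8374 to 8676 against 4394 to 4954. Of the cycling list 6 of 12 were called lower, and 8 of 14 macrophage, 6 of 8 neutrophil and 2 of 7 smooth muscle markers. Their part in the members' changes was not tested.

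**Figure D3:**
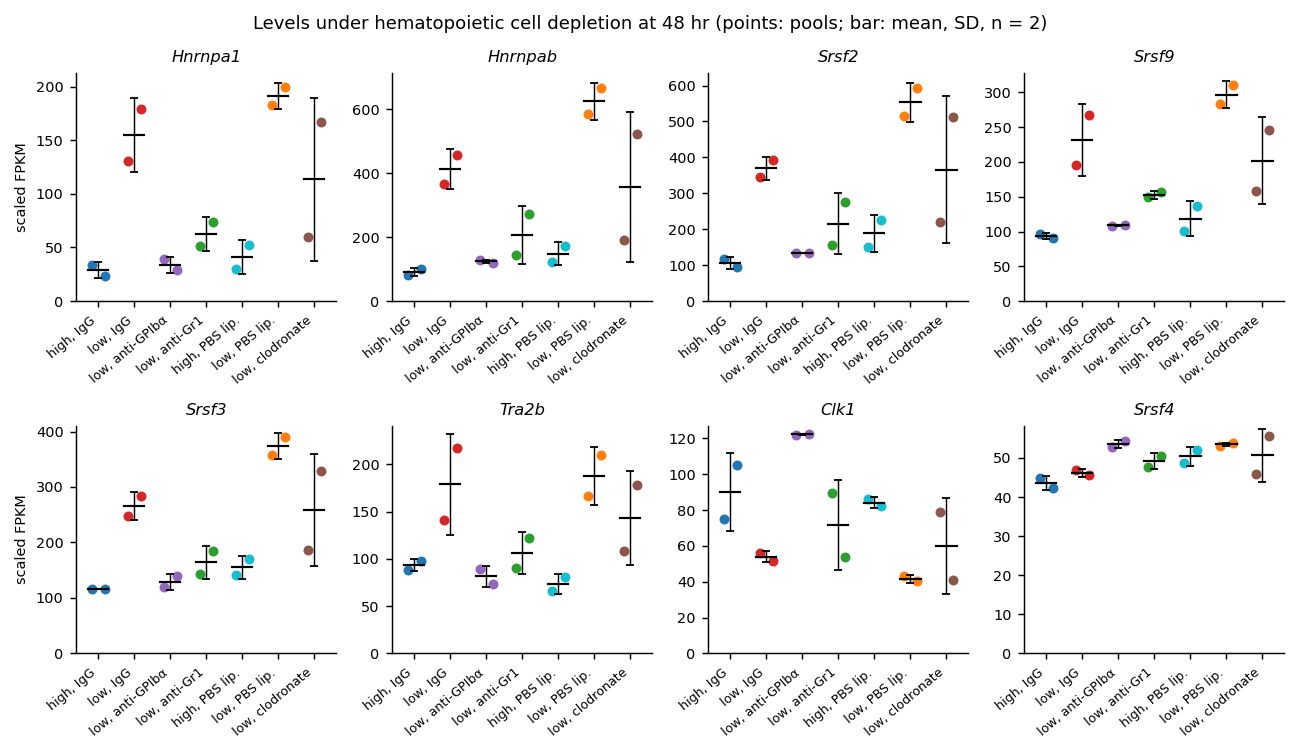
Scaled FPKM (linear axis) of 8 members in the 14 pools of the depletion experiment, 1 point per pool and bars for the mean and SD of each group of 2. With anti-GPIba, Hnrnpa1 sat at 39.3 and 28.7, overlapping the high-flow IgG pools of a later sequencing batch (34.0 and 23.8). Both values lay below the low-flow IgG pools (131 and 179), and the 2 clodronate pools lay apart at 59.6 and 167.

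Hnrnpa1 was at 39.3 and 28.7 scaled FPKM with anti-GPIba and 131 and 179 with IgG, without overlap (log2 fold change −2.19 ± 0.451, edgeR Padj = 0.0212). Of all genes tested, 73.9% had groups without overlap in this comparison. Hnrnpab fell from 368 and 457 to 128 and 120 scaled FPKM (log2 fold change −1.73 ± 0.431, edgeR Padj = 0.031), and Hnrnpa2b1 from 342 and 427 to 178 and 182 (−1.09 ± 0.274, Padj = 0.0313). Hnrnpm, Hnrnpc, Hnrnpa3 and Hnrnph1 were lower by log2 fold changes of −1.09, −0.95, −0.77 and −0.67. Against the high-flow IgG pools, the anti-GPIba pools overlapped in Hnrnpa1, Hnrnpa3 and Hnrnpm and stood above both in Hnrnpab (81.4 and 100 scaled FPKM at high flow), Hnrnpc, Hnrnpa2b1 (162 and 178) and Hnrnph1. This difference was not tested, and the high-flow IgG pools came from a later sequencing batch than the anti-GPIba pools.

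Srsf2 showed the largest decrease among the SR proteins, from 346 and 392 to 133 and 133 scaled FPKM (log2 fold change −1.47 ± 0.384, edgeR Padj = 0.0334). Srsf6 fell from 73.5 and 89.4 to 34.1 and 37.6 (−1.18 ± 0.304, Padj = 0.0324), Srsf9 from 195 and 268 to 108 and 109 (−1.09 ± 0.248, Padj = 0.0262) and Srsf3 from 248 and 284 to 119 and 139 scaled FPKM (−1.04). Tra2b was at 89.8 and 73.8 scaled FPKM with anti-GPIba and 141 and 217 with IgG (log2 fold change −1.13 ± 0.295, edgeR Padj = 0.0334). Clk1 was the member that rose, from 56.1 and 51.8 to 122 and 123 scaled FPKM (log2 fold change 1.18 ± 0.317, edgeR Padj = 0.0345). It stood above the high-flow IgG pools of the later batch, at 74.8 and 105. Srpk2, by contrast, was not called, with 4.97 and 5.01 against 3.30 and 3.85 scaled FPKM, nor was Srpk1, with 11.4 and 15.1 against 22.6 and 27.5. Srsf5 and Srsf1 were not called either, with log2 fold changes of 0.65 and −1.08, and Hnrnpl had −1.02.

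Depletion of granulocytes or macrophages gave no called member, which does not show that the members did not differ. With anti-Gr1 against IgG the median log2 fold change was −0.46 over the members, with 0 of 41 members and 0.0% of genes called (edgeR). An unadjusted p of 0.05 was passed by 2432 genes, and 179 were called by DESeq2. Hnrpll had the smallest p (log2 fold change −0.93, Padj = 0.243), then Hnrnpa1 (−1.30) and Srsf11 (−0.70). The 2 anti-Gr1 pools differed from each other, with Hnrnpab at 143 and 272 and Srsf2 at 155 and 276 scaled FPKM, and cycling markers summed to 160 and 162 scaled CPM in them. Pool 1 was below pool 2 in 30 of 41 members and in 52.1% of all genes tested. Smooth muscle markers summed to 1710 and 6369 scaled CPM over these pools. Against the IgG pools, whose sums are given above, the anti-Gr1 pools held macrophage markers at 1271 to 1403, neutrophil markers at 19.0 to 37.3 and cycling markers at 160 to 162, all lower, and endothelial markers at 6265 to 6812, higher, and the part of these was not tested. Between anti-GPIba and anti-Gr1 0 members and 0.0% of genes were called (edgeR, with 1409 genes past an unadjusted p of 0.05 and 352 past the threshold of DESeq2), with Clk1 at a log2 fold change of 0.77, Hnrnpr at −0.44 and Hnrnpa1 at −0.89.

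With clodronate against PBS liposomes 0 of 41 members were called, as against 0.119% of genes, 16 in number. An unadjusted p of 0.05 was passed by 2002 genes, and 467 were called by DESeq2. The members' median log2 fold change was −0.29, and Hnrnpc (−0.77, edgeR Padj = 0.266), Hnrnpa2b1 (−0.70) and Hnrnph1 (−0.46) had the smallest p. The clodronate pools stood far apart. In pool 1 Hnrnpa1 was at 59.6, Hnrnpab at 191, Srsf2 at 221 and Clk1 at 79.1 scaled FPKM, and in pool 2 at 167, 522, 511 and 41, close to the PBS liposome pools at 182 and 200, 584 and 665, 515 and 592, and 43.3 and 40.2. Pool 1 was below pool 2 in 32 of 41 members and in 52% of all genes tested. Cycling markers summed to 98.8 scaled CPM in pool 1 and 1884 in pool 2, and macrophage markers to 244 and 247. The macrophage sums lay below both low-flow PBS liposome pools, whose range is given above. The part of the marker lists in the members' changes was not tested. Of the fits with 1 pool left out, only that without pool 2, which leaves 1 clodronate pool, changed the count of called members. In such fits the lone pool is assumed to vary like the other groups, whose pools supply the spread.

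In the Rbfox2 experiment the targeted gene was lower in each EC-KO pool, at 0.174 to 1.08 scaled FPKM against 2.76 to 5.58 in the controls. At low flow 0 of 41 members were called between EC-KO and control (0.0% of genes, edgeR, with 880 genes past an unadjusted p of 0.05 and 16 past the threshold of DESeq2), and the members' median log2 fold change was −0.32, with 33 members below 0 and 8 above. As for the depletions, a count of 0 here and in the comparisons that follow does not show that the members did not differ. Hnrnpl had the smallest p, at 33.1, 34.3 and 41.6 scaled FPKM in EC-KO pools 1, 4 and 5 and 45.3, 61.4 and 59.9 in control pools 1, 4 and 5, without overlap (log2 fold change −0.61 ± 0.194, edgeR Padj = 0.692). Hnrnpm and Clk1 followed, with log2 fold changes of −0.63 and 0.66. Groups without overlap, as for Hnrnpl, occurred in 7.84% of all genes tested. At high flow 0 of 41 members were called, against 0.00749% of genes, with 293 genes past an unadjusted p of 0.05 and 29 past the threshold of DESeq2. Clk3 (log2 fold change 0.59), Hnrnpa3 (−0.51) and Hnrnpul1 (0.45) had the smallest p, all with an adjusted p of 1. The difference of the EC-KO effect between the flows was called for 0 members and 0.0% of genes (edgeR interaction term, 538 genes past an unadjusted p of 0.05, 21 past the threshold of DESeq2), with Clk3 at −0.94, Hnrnpl at −0.82 and Hnrnpul1 at −0.61.

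**Figure D4:**
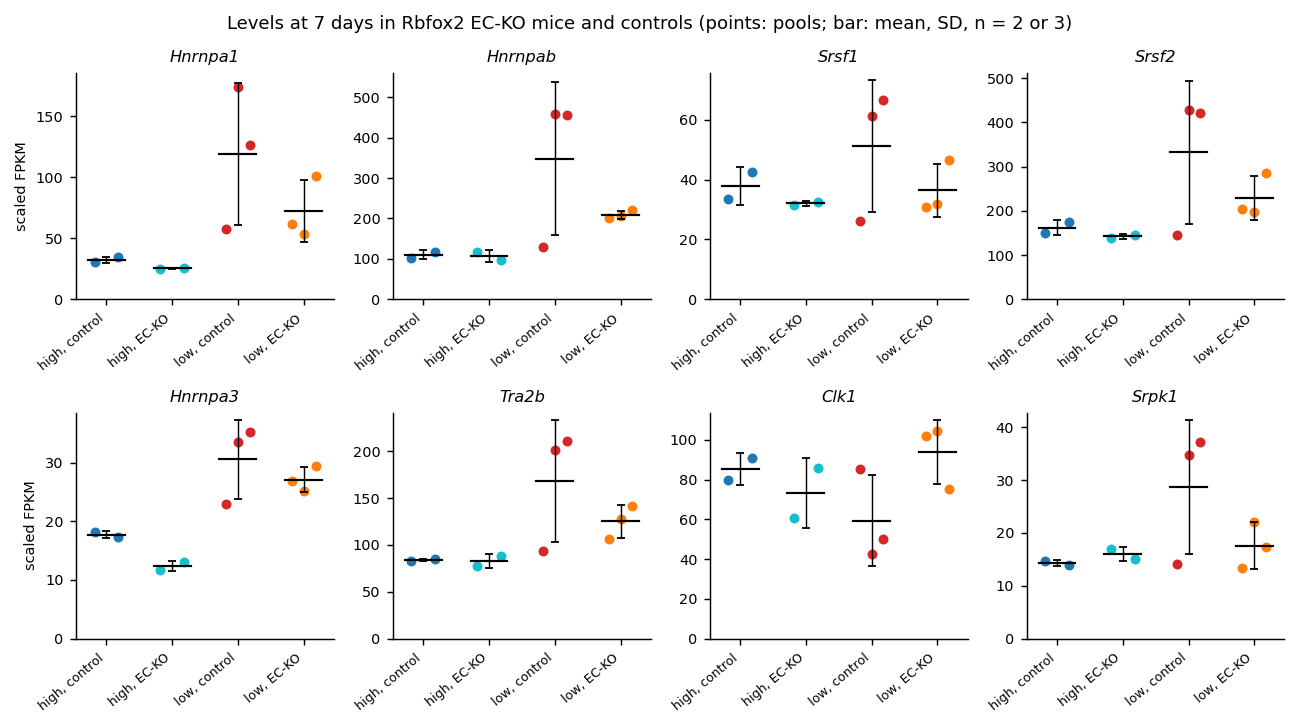
Scaled FPKM (linear axis) of 8 members in the 10 pools at 7 days, 1 point per pool and bars for the mean and SD of each group (2 high-flow and 3 low-flow pools per genotype). Control low-flow pool 1, at 57.7 for Hnrnpa1 and 129 for Hnrnpab, sat apart from pools 4 and 5 at 174 and 126 and at 458 and 456.

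Among the controls, low flow against high flow at 7 days called 0 of 41 members, against 2.4% of genes (edgeR, 3332 genes past an unadjusted p of 0.05). DESeq2 called 10 members and 2224 genes (16.9%). The members' median log2 fold change was 0.54. Hnrnpa1 was at 57.7, 174 and 126 scaled FPKM in low-flow pools 1, 4 and 5 and 30.5 and 34.2 at high flow, without overlap (log2 fold change 1.88 ± 0.441, edgeR Padj = 0.0521). The groups did not overlap in 39.8% of all genes tested. Hnrnpa2b1 and Hnrnpa3 had log2 fold changes of 1.00 (Padj = 0.0669) and 0.79 (0.0706). Low-flow control pool 1 was the lowest of the 3 in most members. It was below pools 4 and 5 in 30 of 41 members and in 35% of all genes tested, and above both in 9 members, among them Clk1 (85.4 against 42.5 and 50.2 scaled FPKM). Cycling markers summed to 242 scaled CPM in pool 1, 2401 in pool 4 and 2933 in pool 5, and pool 1 was also the pool of the earlier sequencing batch. Between flows in the controls, endothelial markers summed to 4873 to 7788 scaled CPM at low flow and 11483 to 12200 at high flow, smooth muscle markers to 1299 to 1681 and 300.1 to 412 and macrophage markers to 348 to 1749 and 54.4 to 145, and their part was not tested. Without control low-flow pool 1, 24 members were called between flows in the controls and 17 between EC-KO and control at low flow. Without the libraries of the earlier batch in both genotypes the counts were 24 and 2, and with the pool number as a block 19 and 0. No share of all genes is given for these fits, so the counts show only how the calls moved.

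In EC-KO arteries 1 of 41 members was called between low and high flow, against 1.09% of genes. It was Hnrnpa3, another hnRNP of the A/B group, at 26.8, 25.1 and 29.4 scaled FPKM at low flow and 11.8 and 13.0 at high flow (log2 fold change 1.13 ± 0.22, edgeR Padj = 0.0459), and it was not called when any pool was left out. With the pool number as a block 4 members were called, and without the earlier batch 7, with no share of all genes given for these 2 fits. Marker sums differed between the flows here as well, at 6534 to 7554 against 11466 to 12128 scaled CPM for endothelium, 1064 to 1727 against 269 to 332 for smooth muscle and 1100.4 to 2015 against 90.0 to 106 for macrophages. Hnrnpa1 was at 61.5, 53.6 and 101 against 24.9 and 25.8 (log2 fold change 1.51, edgeR Padj = 0.136), without overlap, as in 43.6% of all genes tested. Srpk1 stood at 13.3, 22.1 and 17.4 scaled FPKM in the low-flow EC-KO pools and 14.1, 34.7 and 37.2 in the low-flow controls, and Tra2b at 107, 128 and 141 against 93.8, 201 and 211. In both genes control pools 4 and 5 lay above all EC-KO pools. Control pool 1 lay below them in Tra2b and within their range in Srpk1.

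In the cultures each condition had 1 library, so no test was made and a ratio of more than 1.5 of FPKM per library total was taken as a difference. In the aortic endothelial line Cdh5 stood at 2.06 to 2.09 and Pecam1 at 53 to 63 FPKM, and endothelial markers summed to 370 to 419 scaled CPM. Smooth muscle markers summed to 597 in untreated cells, 284 after plasma, 482 after platelets plus macrophages and 544 after all 3 additions, above the endothelial sum in 3 of the 4 conditions. Macrophage markers rose from 20.4 scaled CPM in untreated cells to 56.9 after plasma, 406 after platelets plus macrophages and 315 after all 3 additions, and cycling markers ranged from 1620 to 2382. With 10% plasma 0 of 41 members were higher and 3 lower, where 22.5% of genes were past that ratio, 8.25% higher and 14.2% lower. Platelets plus macrophages gave 0 higher and 8 lower (21.4% of genes, 6.72% higher and 14.7% lower). All 3 additions together gave 2 higher and 3 lower (34.3%, with 13.2% higher and 21.1% lower). After TMM scaling the totals were 2, 5 and 6.

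**Figure D5:**
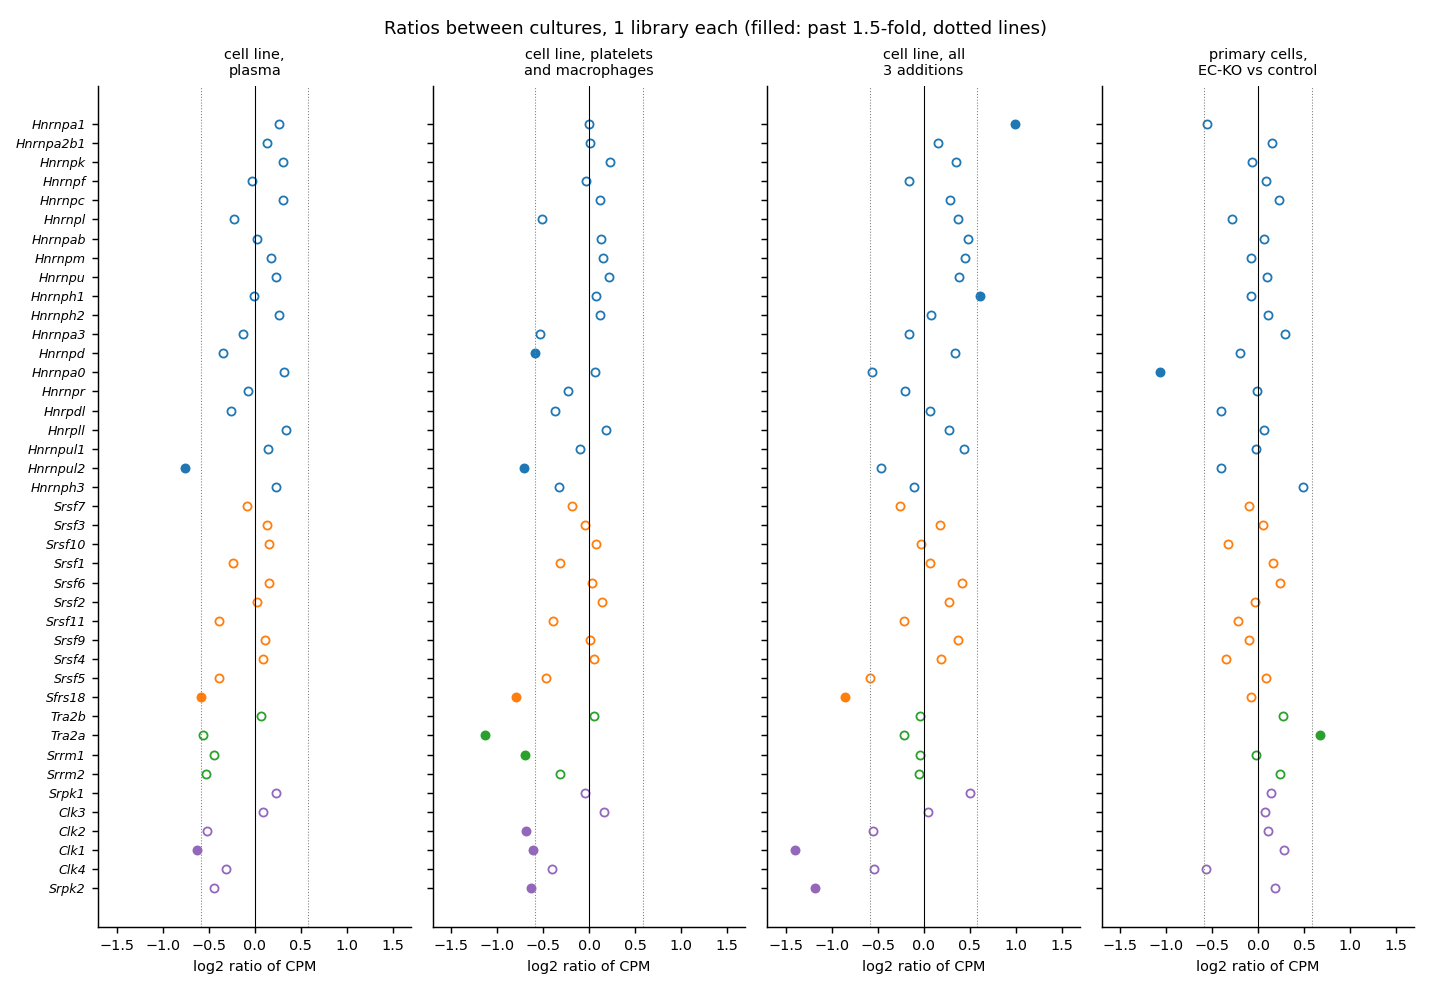
Log2 ratio of CPM (the same as that of FPKM) for the 41 members with enough counts (rows, grouped by role) in 4 comparisons of single libraries: the line given plasma, platelets plus macrophages, or all 3 over untreated cells, and primary Rbfox2 EC-KO over control cells. Lines mark 1.5-fold. Clk1 lies at 46.8, 47.4 and 27.4 FPKM in the 3 additions against 72.4 untreated, beyond the line in each.

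Clk1 was at 72.4 FPKM in untreated cells, 46.8 after plasma, 47.4 after platelets plus macrophages and 27.4 after all 3. Sfrs18, an SR-rich protein of the nucleus, was at 16.3, 10.8, 9.41 and 9.0 in the same order. Srpk2 stood at 21.4 FPKM untreated, 13.9 with platelets and macrophages and 9.45 with all 3. These 3 genes were the members below the 1.5-fold line with all 3 additions. Hnrnpa1 reached 152 FPKM with all 3 against 76.4 untreated, and Hnrnph1 77 against 50.2. Tra2a was at 14.9 with platelets and macrophages against 32.7 untreated, and Clk2, Srrm1, Hnrnpd and Hnrnpul2 also lay below the line there.

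In the primary cells Rbfox2 was at 0.669 scaled FPKM in the EC-KO culture and 9.41 in the control. Of 41 members 1 was higher and 1 lower past 1.5-fold, where 13.3% of genes were, 6.93% higher and 6.38% lower. Tra2a was at 21.9 FPKM against 13.7, a ratio of 1.59, and Hnrnpa0 at 12.0 against 25.1, a ratio of 0.479. Macrophage markers summed to 2.10 scaled CPM in the EC-KO culture and 341 in the control, so these 2 cultures also differed in that list.

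Genes that work beside the members were counted from 5 lists. Between low and high flow at 48 hr 6 of 11 genes of the U1 particle, U2AF and Luc7-like proteins rose and 1 fell (median log2 fold change 0.54), among them Snrpa at 1.23, U2af1 at 1.18 and U2af2 at 1.08, with Luc7l2 at −0.91. Of all genes 23.6% rose and 22.6% fell in that comparison. Of 9 SF3A and SF3B subunits 5 rose (median 0.74), led by Sf3b3 and Phf5a at 1.18 and 1.16. Import receptors and modifying enzymes gave 5 of 13 higher and 0 lower, and these were the arginine methyltransferases Prmt1 (1.95) and Prmt5 (1.26) with the Prmt5 partner Wdr77 (1.74), the import receptor Tnpo1 (1.90) and the phosphatase subunit Ppp1ca (1.12). Other SR-rich nuclear proteins gave 2 higher and 1 lower of 18, and factors of nonsense-mediated decay 2 higher and 2 lower of 12, with Magoh at 1.07 and Smg6 at −1.53, so that neither list exceeded the shares of all genes in either direction. Under IgG the 5 lists gave 5 higher and 1 lower of 11, 4 and 0 of 9, 3 and 1 of 15, 3 and 3 of 18 and 3 and 3 of 12, in the same order, where 22.8% of all genes were higher and 17.7% lower. Under PBS liposomes they gave 6 and 0, 4 and 0, 5 and 1, 3 and 2 and 3 and 1, where 19.6% were higher and 15.5% lower. With anti-GPIba against IgG they gave 0 higher and 5 lower of 11, 0 and 2 of 9, 0 and 1 of 15, 0 and 1 of 18 and 1 and 2 of 12, where 6.05% of all genes were higher and 10.5% lower. U2af1 and Snrpa had log2 fold changes of −1.30 and −1.25 there, Magoh −1.44 and Smg6 1.55. None of the 5 lists held a called gene in the comparisons of high flow with sham, anti-Gr1 with IgG, anti-GPIba with anti-Gr1 or clodronate with PBS liposomes, nor in the 5 comparisons at 7 days.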

How the data were processed

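Intimal RNA was amplified with a low-input SMARTer kit and sequenced as paired ends. The authors mapped reads with STAR 2.5.1b (the methods give TopHat for trimmed untreated reads) to mm9 and deposited expected counts per gene from RSEM 1.2.15, which were not normalized and were not filtered as far as stated. Lengths and effective lengths were deposited in bases. Of 21675 rows, the 1 without a gene name was left out, and it held 0.0442% to 0.117% of counts in the libraries that list a value for it. Of the columns of values 147 were not used, among them repeat sequencing of pools that could not be tied to 1 sample.

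Counts were rounded and tested with edgeR 4.0.16 in R 4.3.3 (filterByExpr, TMM, quasi-likelihood F-test, Benjamini-Hochberg adjustment over all genes tested). The threshold was an adjusted p of 0.05. The untreated groups were fitted in pairs, the depletion groups in 1 fit and the 7 day groups in 1 fit. DESeq2, run here in version 1.42.0, was an alternative. The authors used an older version. The errors are standard errors from the F statistic. P-values set the difference between groups against the spread between pools, which the groups of the depletion fit and of the 7 day fit share. They do not describe variation between single mice. The steps were tested on simulated data with known changes, and the fits left changed genes uncalled in each design tried. Ratios, motif matches and figures came from Python 3.11.15 (numpy 2.4.6; pandas 2.3.3; matplotlib 3.10.9). Where members are named for a comparison, they are up to 8 raised and 8 lowered with the largest change among called members without overlap, or the 3 with the smallest p where fewer than 3 were called (in cultures up to 5 each way past 1.5-fold with 100 counts), together with a fixed set followed throughout and members added after their values were seen.

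The members and lists were chosen with earlier results of these data known. At 7 days same-numbered low-flow EC-KO and control pools deviated together (r across genes 0.50, 0.14 and 0.36 for numbers 1, 4 and 5), and fits with that number as a block are given where they change a count.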

Additional observations from a re-analysis of the deposited data

How the results depend on the processing

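Srsf12 did not pass the filter on low counts in any comparison, and 2 or 3 pools a group limited the precision of the other members. The count of members called between low and high flow at 48 hr was 8 by library totals and 12 without low-flow pools A and B, and 16 to 22 when 1 pool was left out. For low flow against sham it was 5 by library totals, 0 without pools A and B and 4 to 19 with 1 pool left out. Under library totals, which put the median gene at −0.71 against sham, the log2 fold changes of Hnrnph2 (0.63), Srsf10 (0.67) and Tra2b (0.73) against sham turned to −0.11, −0.03 and −0.00, and that of Hnrnpl turned from 1.40 to −0.22 against high flow and from 1.54 to −0.10 against sham without pools A and B. For anti-GPIba against IgG the count of 13 became 24 with DESeq2, 24 with only the compared groups in the fit, 23 with the replicate number as a block, 6 with reads trimmed to 100 bp and 0 with any 1 pool left out. Clodronate gave 0 to 4 with 1 pool left out, the IgG flow comparison 6 to 18 and the PBS liposome flow comparison 5 to 15. At 7 days, EC-KO against control at low flow gave 2 members without the earlier sequencing batch and 0 to 17 with 1 pool left out. Low against high flow in the controls gave 10 with DESeq2, 1 with no filter on low counts, 19 with the replicate block, 24 without the earlier batch and 0 to 24 with 1 pool left out. In EC-KO arteries it gave 2 with DESeq2, 4 with the replicate block, 3 with only the compared groups, 7 without the earlier batch and 0 with any 1 pool left out. The cell line with platelets and macrophages had 5 members past 1.5-fold after TMM scaling, where it had 8. No share of all genes is given for these fits, so the counts show how the calls moved, not whether members exceed all genes. The cause of these shifts was not tested beyond the smaller number of pools in those fits that leave some out. The fits by library totals, without pools A and B, with trimmed reads and without the earlier batch, and the TMM scaling of the cell line, were chosen after seeing the data. The other run of the untreated pools and the sum of both runs, planned as alternatives, were not run, because those columns could not be tied to single samples.

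In the depletion experiment, same-numbered pools had correlations of −0.18 to 0.62 across genes. Between low- and high-flow pools of the same injection they were 0.04 under IgG and 0.36 under PBS liposomes. With 2 pools a group, different-numbered pools have the same correlations with opposite sign. These values therefore cannot show whether the numbers pair the pools. No paired analysis was possible for the untreated pools because their columns carry letters, which could not be matched to the replicate numbers of the labels.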

Other observations

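The ratio of Srpk1 to Srpk2 FPKM within a library needs no scaling factor, and it was looked at after the values of both kinases had been seen. It was 5.52, 6.31 and 4.58 in the untreated low-flow pools, 1.19, 1.53 and 1.14 at high flow and 1.56, 1.44 and 1.95 after sham surgery. Under IgG it was 6.86 and 7.15 at low flow and 2.17 and 1.56 at high flow, and under PBS liposomes 11.2 and 11.7 against 1.7 and 2.52. The anti-GPIba pools had 2.30 and 3.00. The other depletions were split, with 3.38 and 7.76 in the anti-Gr1 pools and 3.14 and 10.5 in the clodronate pools. At 7 days it was 2.30, 6.20 and 10.4 in control low-flow pools 1, 4 and 5, 2.27, 4.39 and 3.19 in the EC-KO pools of the same numbers, and 2.00 to 2.63 at high flow. The cell line had 0.70 untreated, 1.13 after plasma, 1.05 after platelets plus macrophages and 2.27 after all 3 additions, each from 1 library. Under IgG and PBS liposomes, pools of opposite flow came from different batches. A further low-flow PBS liposome pool of the untreated pools' batch had Srpk1 at 44.6 and Srpk2 at 10.3 FPKM. The later pools, trimmed to the same read length, had 29.8 and 31.1, and 2.93 and 3.28. The part of the batch was not tested. Srpk2 counts were also not whole in 31 of 39 libraries.

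Sorted eGFP+ primary aortic cells belong to no comparison. By library total they held Hnrnpk at 767 FPKM, Hnrnpa1 at 601, Srpk1 at 39.8, Clk1 at 18.8 and Srpk2 at 9.24. A further PBS liposome pool and a further clodronate pool at low flow were sequenced in the earlier batch of the untreated pools. Against the mean of the 2 later pools of the same treatment, trimmed to the same read length, 9 of 41 members were 2-fold or more lower and 5 higher in the PBS liposome pool (21.0% and 7.18% of genes), and 8 lower and 6 higher in the clodronate pool (29.1% and 9.80%). Hnrnpab was at 75.8 FPKM in the earlier PBS liposome pool and at 536 and 609 in the later ones, and Hnrnpa1 at 617 against 204 and 211.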
